A study of Rattus norvegicus with 8 samples.

Results

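The miR-183 cluster is a group of 3 microRNA genes, Mir183, Mir96 and Mir182. Its members were taken as every rat miRNA on the array named miR-96, miR-182 or miR-183, with either arm. That rule gave 5 of the 758 miRNAs on the array: rno-miR-96-5p, miR-96-3p, miR-182, miR-183-5p and miR-183-3p. They were measured by 14 of the 1806 miRNA probes. The cluster was chosen from measured values, because miR-96-5p was among the highest rises in the comparison of nephrectomized with sham-operated rats. Values of that comparison are therefore given as a description, with no test.

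The RNA came from the renal cortex of male rats, with 8 one-colour arrays in 4 groups of 2. SHAM rats had a sham operation and a diet with 0.50% sodium. UNX rats were nephrectomized, ate the same diet and had injections of the soybean oil vehicle under the skin. DOCA rats were nephrectomized too. They ate a diet with 1.5% sodium and had weekly intravenous vehicle from week 2 on. Under the skin they were given the mineralocorticoid deoxycorticosterone acetate in soybean oil, 8 mg/kg each time and 2 times a week. DOCA-EVs rats were treated like DOCA rats, but their weekly intravenous injections from week 2 on held extracellular vesicles from adipose mesenchymal cells. Nephrectomy was thus shared by UNX, DOCA and DOCA-EVs, and the salt diet and steroid by DOCA and DOCA-EVs. Cortex was collected 9 weeks after the nephrectomy by the treatment protocol, and after 8 by the sample descriptions. Strain and age were not given in the labels. The study asked whether the vesicles protect heart and kidney in hypertension caused by steroid and salt.

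The genes of the miR-183 cluster are transcribed together and cut into separate hairpins, each of which can give a mature strand from either arm. A mature miRNA guides a silencing complex to messenger RNAs, chiefly through its seed, bases 2 to 8. The cluster is best known for its high level in sensory cells such as hair cells and photoreceptors. In mouse, a change in the seed of miR-96 causes hearing loss. The cluster is also active in several epithelia. Because the samples were bulk cortex, fewer cells of a type and less RNA per cell cannot be told apart.

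The mature sequences show how close the main strands are to each other. They come from RefSeq, build GRCr8, where all 5 names matched; capitals mark the seed.
miR-183-5p: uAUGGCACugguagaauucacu
miR-96-5p: uUUGGCACuagcacauuuuugcu
miR-182: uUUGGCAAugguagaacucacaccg
miR-183-3p: uGAAUUACcgaagggccauaa
miR-96-3p: cAAUCAUGugcagugccaauau
Positions were counted from 1 at the 5′ end of the mature strand. Within the seed, miR-96-5p and miR-182 differed only by C8A, so they shared bases 2 to 7. The seeds of miR-96-5p and miR-183-5p differed by U2A, and those of miR-182 and miR-183-5p by U2A and A8C. Over the whole strand, seed included, the closest pair was another one. Without gaps from the 5′ end, miR-182 and miR-183-5p were identical at 18 of 22 bases, miR-96-5p and miR-183-5p at 13 of 22, and miR-96-5p and miR-182 at 12 of 23. None of the 693 mature rat miRNAs in the table shared the full seed of any of the 5.

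In GRCr8 the 3 hairpins lie on the minus strand of chromosome 4, within 3908 bases at chr4:59752246-59756153. In the direction of transcription Mir183 comes first, at chr4:59756044-59756153. Mir96 follows after 97 bases, at chr4:59755841-59755946, and Mir182 after another 3533 bases, at chr4:59752246-59752307. Nrf1, the gene of a transcription factor for nuclear genes of mitochondrial proteins, and Ube2h, the gene of a ubiquitin-conjugating enzyme, are neighbours on opposite sides. Mir3553 overlaps the Mir183 hairpin on the plus strand. Its mature miR-3553 was detected on 0 of the 8 arrays, and it is no member.

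Of the 5 members, miR-96-5p and miR-182 were detected on all 8 arrays. A miRNA counted as detected where the scanner software called it so. miR-183-5p was detected on 5 arrays: both UNX, both DOCA-EVs and DOCA 2. The 2 remaining strands, miR-96-3p and miR-183-3p, were not detected on any array. All 32 probe values of miR-183-3p and 20 of the 24 of miR-96-3p were at the floor, a signal of 2.57 set by the spread of the negative controls. A miRNA entered the fit if it was detected on both arrays of at least 1 group, as were 242 of 758 (31.9%). That left 3 members: miR-96-5p, miR-182 and miR-183-5p. miR-183-5p passed only through UNX and DOCA-EVs, where it was high, so its difference from the other groups was in part a condition of its entry.

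**Figure D1:**
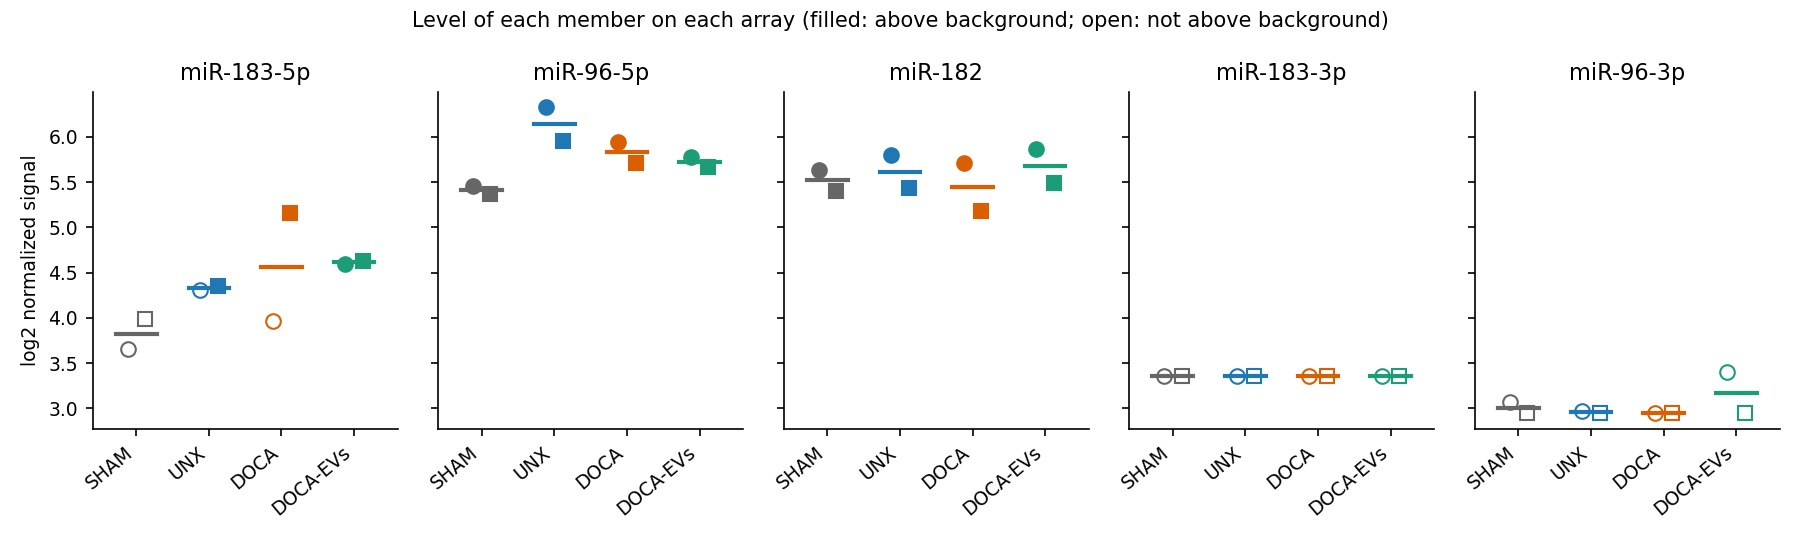
Each panel shows 1 member, with the log2 normalized signal on the y axis and the 4 groups on the x axis; circles are replicate 1, squares replicate 2 and lines the group means. Filled points are above background and open ones are not. For miR-96-5p all 6 arrays of nephrectomized rats lie above both SHAM arrays, while miR-96-3p and miR-183-3p stay near the floor on all 8.

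A few facts of the arrays touch every value. The hybridisation control RNA gave 1005 on DOCA 2 and 1136 on DOCA-EVs 2, against 2200 to 2415 on the 6 other arrays. The software detected 208 to 264 miRNAs per array, fewest on DOCA 2. The median absolute difference between the 2 arrays of a group was smallest in SHAM (0.06 on the log2 scale), then UNX (0.18), DOCA (0.25) and DOCA-EVs (0.37). All arrays lay on 1 slide, with a group in each slide column, so group and column cannot be told apart. With 2 arrays a group an exact permutation test cannot give a p below 0.333, so only the limma fit across all 242 miRNAs was used. The number of arrays limits the precision.

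miR-96-5p had its lowest levels in SHAM and its highest in UNX. On the log2 normalized scale, SHAM 1 and 2 were at 5.46 and 5.37, and UNX 1 and 2 at 6.33 and 5.95. DOCA 1 and 2 were at 5.95 and 5.71, and DOCA-EVs 1 and 2 at 5.78 and 5.66. Both UNX arrays were the highest of the 8 and both SHAM arrays the lowest, with UNX 2 and DOCA 1 nearly level. Group means (SD, n = 2) were 5.42 ± 0.07 in SHAM, 5.72 ± 0.08 in DOCA-EVs, 5.83 ± 0.16 in DOCA and 6.14 ± 0.26 in UNX. In that order, DOCA-EVs and DOCA overlapped, and no other neighbours did.

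The difference between UNX and SHAM, which chose the cluster, was 0.72 ± 0.17 (SE) on the log2 scale, or 1.65-fold. It was 0.86 in slide row 1 and 0.58 in slide row 2. The median of all 242 miRNAs was -0.12 in this comparison, and miR-96-5p stood 0.84 above it. It ranked 3 of 242 from the top. Just above it were miR-19a-3p at 0.81, above background on 0 SHAM arrays, and miR-3584-5p at 0.76 with an SE of 0.87. Just below it was miR-128-3p at 0.52, above background on 0 SHAM arrays and 1 UNX array. The limma test called 0% of the 242 miRNAs in this comparison, with 16 under an unadjusted p of 0.05. The UNX arrays of 25.2% of the miRNAs lay above both SHAM arrays, among them miR-96-5p and miR-183-5p.

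The probes of miR-96-5p gave like values. Its 2 probes differed between UNX and SHAM by 0.64 and 0.81 on the log2 scale. Across the 8 arrays the scaled signal ran from 22.1 to 41.2 for the one and from 19.2 to 39.1 for the other, and both were highest on UNX 1 and lowest on SHAM 2. Spots of a probe on 1 array had a coefficient of variation from 3.84 to 19.0%, with a median of 7.60%. The software had marked 16 of the 128 spots of miR-96-5p over the 8 arrays as outliers, and these were left out. Keeping them gave 0.69 in place of 0.72. The software's own total signal per miRNA, unscaled, was 25.9 and 23.2 in SHAM, 54.0 and 40.7 in UNX, 35.8 and 20.9 in DOCA and 33.6 and 30.1 in DOCA-EVs. By that measure too UNX was highest, but DOCA 2 was below both SHAM arrays.

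**Figure D2:**
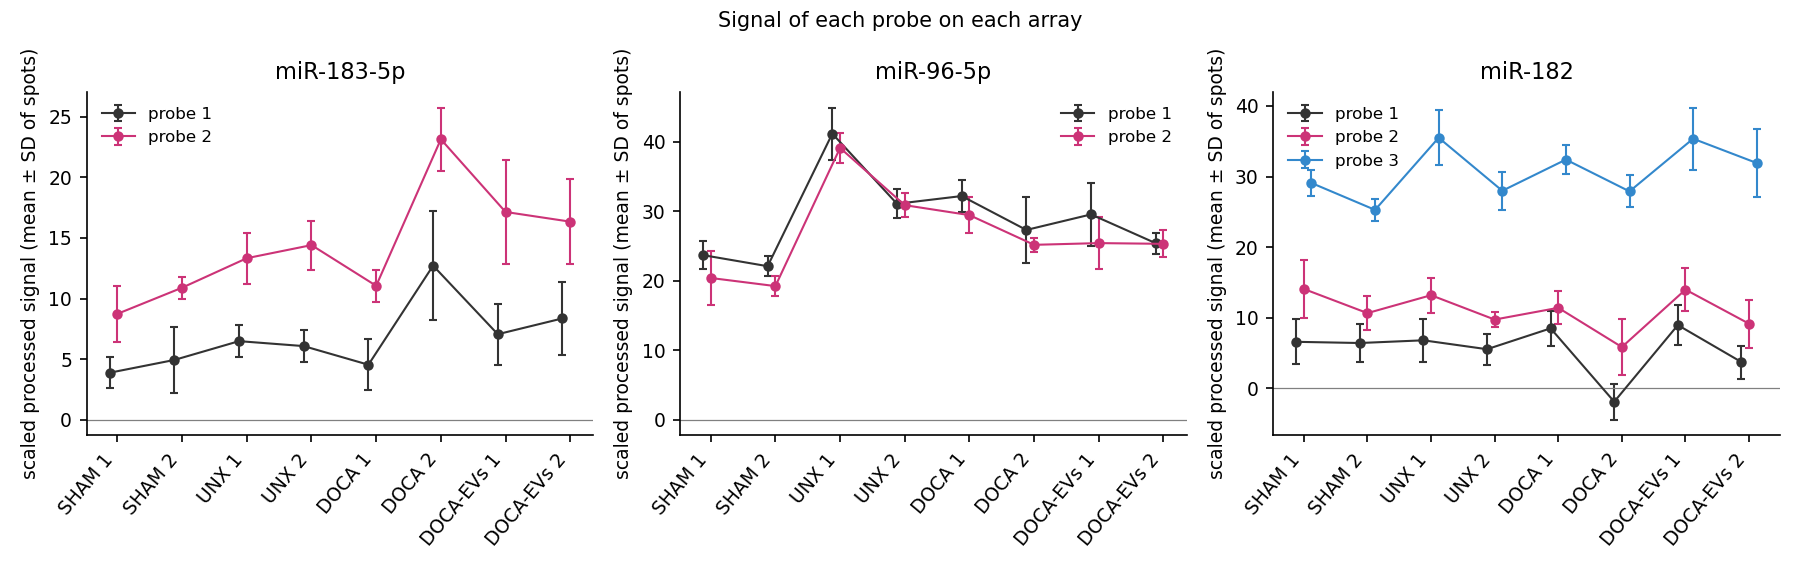
The scaled processed signal of each probe (y axis, with the mean and SD of its spots) on each of the 8 arrays (x axis) is drawn for miR-183-5p, miR-96-5p and miR-182. Both probes of miR-96-5p peak on UNX 1, both probes of miR-183-5p on DOCA 2, and 1 probe of miR-182 falls below 0 on DOCA 2.

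All 6 arrays of nephrectomized rats lay above both SHAM arrays for miR-96-5p, with 0.20 between the lowest of the 6 (DOCA-EVs 2) and the highest SHAM array. The same held for 6.61% of the 242 miRNAs. By the size of that gap miR-96-5p was in place 4, after miR-142-3p, miR-128-3p and miR-146a-5p. Since the UNX and SHAM arrays had chosen miR-96-5p, this is a description of the 8 arrays. Without scaling the arrays to each other the gap was -0.33, since DOCA 2 was then at 5.12 and SHAM 1 and 2 at 5.44 and 5.26. DOCA 2 had a weak hybridisation control, and its part in the result was not tested.

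The DOCA and DOCA-EVs values share the same SHAM arrays and are set side by side. Mean log2 differences from SHAM were 0.72 for UNX, 0.41 for DOCA (1.33-fold) and 0.31 for DOCA-EVs (1.24-fold). DOCA arrays lay above both SHAM arrays for 29.3% of the miRNAs and DOCA-EVs arrays for 27.3%, so that miR-96-5p shared this with many others.

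miR-182 differed little between groups under the reported scaling. Its log2 normalized signal was 5.64 and 5.41 in SHAM, 5.79 and 5.44 in UNX, 5.71 and 5.18 in DOCA, and 5.87 and 5.49 in DOCA-EVs, for replicates 1 and 2. Under that scaling replicate 1 was higher than replicate 2 in all 4 groups, and every pair of groups overlapped. Group means (SD, n = 2) were 5.45 ± 0.37 in DOCA, 5.52 ± 0.16 in SHAM, 5.62 ± 0.25 in UNX and 5.68 ± 0.27 in DOCA-EVs. UNX differed from SHAM by 0.09 ± 0.25 (SE) on the log2 scale, 0.21 above the median of all miRNAs, which was rank 60 of 242. Over the 5 other scalings this difference ran from 0.06, with normexp, to 0.42. Normexp started from the median spot signals and added an offset of 50, which shrinks log2 differences of dim miRNAs. With the percentile over all probes, quantile normalization, normexp or no scaling, both UNX arrays lay above both SHAM arrays. The median of all miRNAs was then 0.19 with the percentile over all probes or without scaling, -0.02 with quantile normalization and 0.002 with normexp.

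The 3 probes of miR-182 did not go the same way between UNX and SHAM. Their log2 differences were -0.08, -0.11 and 0.22, and the last belonged to the brightest probe. On DOCA 2 the dimmest probe had a scaled signal of -1.88 and was set to the floor. On the same array the spots of the middle probe had a coefficient of variation of 68.2%, the highest among the probe values of miR-182 with a positive mean.

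miR-183-5p was dim, and only some arrays measured it above background, defined as at least 50% of the spots of at least 1 probe well above background. That was so on UNX 2, DOCA 2, DOCA-EVs 1 and DOCA-EVs 2. Its log2 normalized signal was 3.66 and 3.99 in SHAM, 4.31 and 4.36 in UNX, 3.96 and 5.16 in DOCA, and 4.60 and 4.63 in DOCA-EVs. The SHAM arrays were among the lowest, DOCA 2 was the highest, and DOCA 1 lay at the level of SHAM 2. Group means (SD, n = 2) were, from low to high, 3.82 ± 0.23 in SHAM, 4.33 ± 0.03 in UNX, then 4.56 ± 0.85 in DOCA and 4.61 ± 0.02 for DOCA-EVs. UNX overlapped neither SHAM nor DOCA-EVs, and DOCA overlapped all 3 other groups.

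For miR-183-5p UNX exceeded SHAM by 0.51 ± 0.37 (SE) on the log2 scale, 0.63 above the median of all miRNAs, and by 0.65 and 0.37 in the slide rows. Over the 5 other scalings the difference ran from 0.09, with normexp and its offset, to 0.93. Because SHAM had 0 arrays above background and UNX only 1, no fold is given for UNX. For DOCA-EVs, with 2 arrays above background, the fold over SHAM is a bound. The DOCA-EVs mean was set against a mean over the SHAM arrays. Each SHAM array counted with the miRNA's own signal or that array's dimmest signal well above background, whichever was higher. Under the reported scaling the mean of miR-183-5p on these arrays was at least 1.24-fold higher in DOCA-EVs than in SHAM. That bound allows for dim SHAM signals but not for the spread between arrays, and the SE of miR-183-5p was 0.37 in the fitted comparisons. The arrays did not overlap, as for the 27.3% of miRNAs with both DOCA-EVs arrays above SHAM. Since miR-183-5p had entered the fit through DOCA-EVs, this is a description, with no test. No bound is given for DOCA, where DOCA 1 lay below SHAM 2 and only DOCA 2 was above background. Its probes were in step, with log2 differences of 0.52 and 0.51 between UNX and SHAM.

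The high value of miR-183-5p on DOCA 2 was not the highest of the 8 arrays before scaling. Before scaling, its summed signal was 23.7 on DOCA 2, close to 24.1 and 24.2 on the UNX arrays. The scale factor of DOCA 2 was 0.661, the lowest of the 8, where the others ran from 0.926 to 1.22. On DOCA 1 the unscaled sum was 15.1, against 12.5 and 14.7 in SHAM. DOCA 2 was the highest of the 8 also with quantile normalization (5.21) and with normexp (7.56), on the log2 scale. The cause of its high value was not tested.

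DOCA and UNX rats were both nephrectomized and differed by the salt diet, the steroid, the intravenous vehicle and the slide column. limma called 1.65% of the 242 miRNAs, 3 higher and 1 lower, and miR-182, the one member tested here, was not called. For miR-96-5p, whose UNX arrays had chosen it, the log2 difference was -0.31 ± 0.17 (SE), with -0.38 and -0.24 in the slide rows. For miR-96-5p it ran from -0.89 to -0.12 over the 5 other scalings, the last with normexp and its offset. Under the reported scaling its DOCA arrays were both below UNX, by a gap of only 0.007, as were those of 20.7% of the miRNAs. That gap depended on the scaling: with quantile normalization UNX 2 was at 6.17 and DOCA 1 at 5.90. For miR-182 the difference was -0.17 ± 0.25 (SE; limma adjusted p = 0.82). For miR-183-5p, which had entered the fit through UNX, it was 0.23 ± 0.37 (SE), given with no test, with slide rows of opposite sign, -0.35 and 0.81. Without DOCA 2 that difference was -0.37, and for miR-182 it was 0.09.

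**Figure D3:**
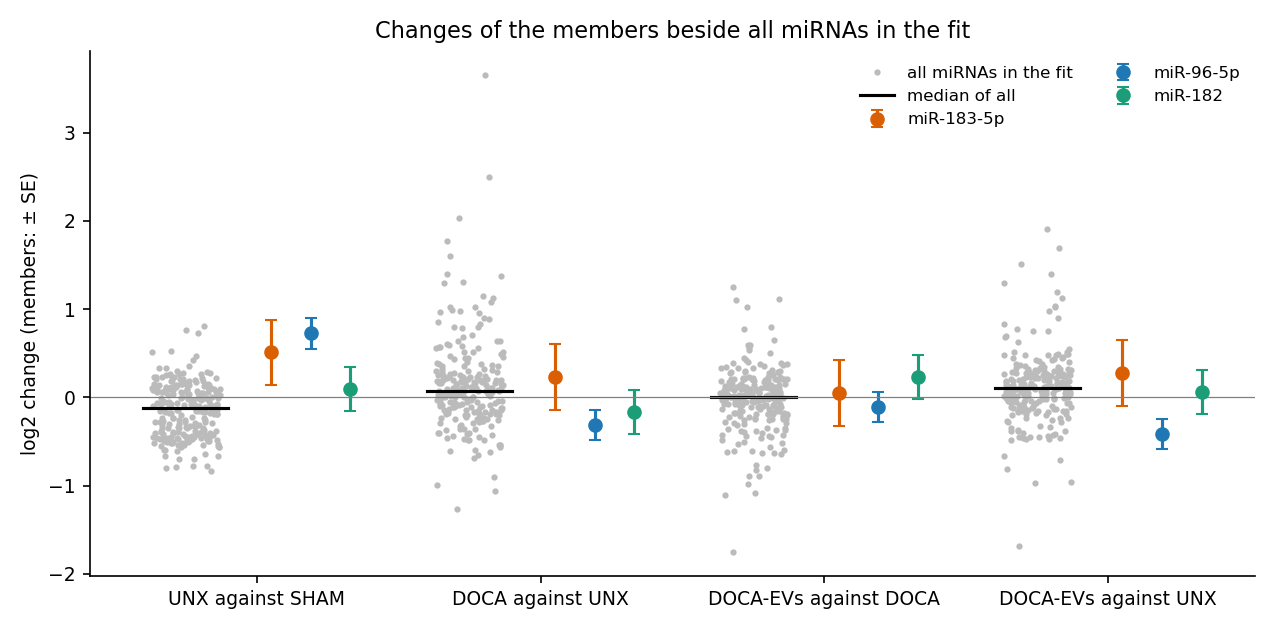
For each of the 4 comparisons on the x axis, the log2 change of all 242 miRNAs is drawn as grey points with a black line at their median, and the change of 3 members as coloured points with SE bars. miR-96-5p lies near the top of the cloud in UNX against SHAM (0.72) and within the lower part in DOCA-EVs against UNX (-0.42), and all 3 members lie within the cloud in DOCA-EVs against DOCA.

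DOCA-EVs and DOCA rats differed by the vesicles and by the slide column. None of the arrays that had chosen the cluster entered these differences, but the SE and p come from the spread over all 8 arrays. limma called 0% of the 242 miRNAs, with 25 under an unadjusted p of 0.05, and neither miR-96-5p nor miR-182 was called. The log2 difference of miR-96-5p was -0.11 ± 0.17 (SE), with a 95% interval from -0.53 to 0.31 (limma adjusted p = 0.996). Fitted on only the 4 arrays compared, its SE was 0.23 (limma adjusted p = 0.998). The DOCA-EVs and DOCA arrays overlapped, and the sign of this difference turned under another scaling: it was 0.34 without scaling and 0.03 with the median of the detected probes. Without DOCA 1 it was 0.01.

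For miR-182 the DOCA-EVs arrays overlapped those of DOCA, and the log2 difference was 0.23 ± 0.25 (SE), with a 95% interval from -0.37 to 0.83 (limma adjusted p = 0.93). It was 0.16 and 0.30 in the slide rows, and all 3 probes were higher in DOCA-EVs, by 0.31, 0.47 and 0.16. Without DOCA 2, where 1 of these probes was at the floor, the difference was -0.03. For miR-183-5p, which had entered the fit through DOCA-EVs, it was 0.05 ± 0.37 (SE), given with no test. Its slide rows differed in sign, 0.63 and -0.54, and without DOCA 1 the difference was -0.55. The intervals of miR-96-5p and miR-182 thus reached both sides of 0.

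DOCA-EVs and UNX rats differed by the salt diet, the steroid, the intravenous injections with vesicles and the slide column. limma called 2.48% of the 242 miRNAs, and miR-182, the one member tested here, was not called. miR-96-5p, again set against the UNX arrays that had chosen it, had a log2 difference of -0.42 ± 0.17 (SE), or 0.53 below the median of all miRNAs, given as a description. Over the 5 other scalings it ran from -0.59 to -0.15, the last with normexp and its offset. Both its DOCA-EVs arrays were under both UNX arrays, as for 15.3% of the miRNAs, and it ranked 17 from the lowest. For miR-183-5p, which had entered the fit through these same groups, the difference was 0.28 ± 0.37 (SE), given with no test. Over the other scalings it was smaller, from 0.01 with normexp to 0.16, and 1 of the 2 UNX arrays was above background. Its arrays did not overlap, as for the 21.5% of miRNAs with both DOCA-EVs arrays above UNX. For miR-182 the difference was 0.06 ± 0.25 (SE; limma adjusted p = 0.93), and its sign turned under every other scaling tried, where it ran from -0.10 to -0.002.

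Under the reported scaling, the 3 fitted members did not share one profile over the 8 arrays. The correlations below are for that scaling only, and the levels of the members shifted with the scaling. With the percentile over all probes, miR-96-5p and miR-182 were both highest on UNX 1 (6.30 and 5.77). Both were then lowest on SHAM 2 (5.23 and 5.26). With quantile normalization both were again highest on UNX 1 (6.38 and 5.87), but miR-182 was lowest on DOCA 2 (5.23). Whether they shared a profile under those scalings was not tested. miR-183-5p was above background on 4 of the 8 arrays, and DOCA 2 was not its highest array before scaling. As a description over n = 8 arrays, which share slide and scaling, Pearson's r was 0.42 between miR-96-5p and miR-182, 0.20 between miR-96-5p and miR-183-5p, and -0.42 between miR-182 and miR-183-5p. Among the 241 other miRNAs in the fit, ordered by r to miR-96-5p, miR-182 was in place 23 and miR-183-5p in place 49. The 5 most like miR-96-5p were let-7f-5p (r = 0.78, Spearman's rho 0.81), miR-98-5p (0.74 and 0.81), miR-22-3p (0.68 and 0.67), miR-128-3p (0.67 and 0.76) and miR-101a-3p (0.64 and 0.50). let-7f-5p and miR-98-5p belong to the let-7 family. Their group means moved far less than those of miR-96-5p: let-7f-5p went from 11.82 in SHAM to 12.03 in UNX, and miR-98-5p from 6.82 to 6.96, on the log2 scale. miR-128-3p was above background on only 2 of the 8 arrays.

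**Figure D4:**
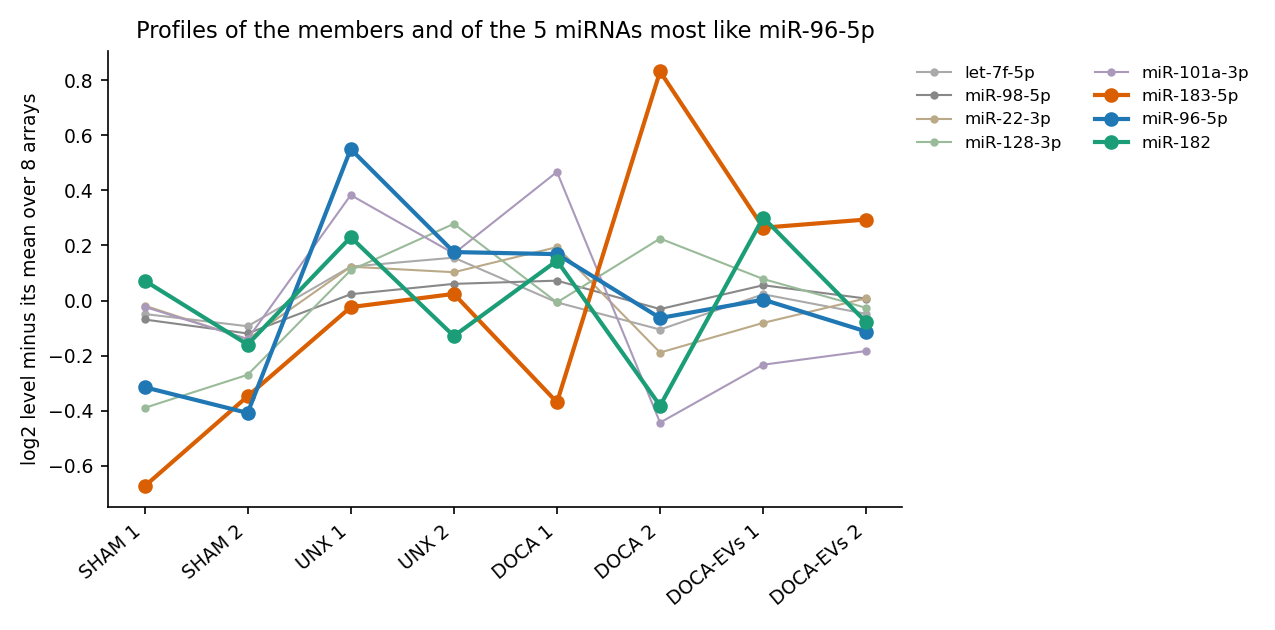
The y axis gives the log2 level of each miRNA minus its own mean over the 8 arrays on the x axis; thick lines are the 3 fitted members and thin lines the 5 miRNAs most like miR-96-5p. The lines only join points of one miRNA. miR-96-5p peaks on UNX 1, miR-183-5p on DOCA 2 and miR-182 on DOCA-EVs 1.

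The members were set beside miRNAs that mark the cell types of a kidney. Of 10 miRNAs of epithelia in general, 8 were in the fit, led by the miR-200 family, which keeps cells epithelial. Between UNX and SHAM 6 of the 8 were higher and 2 lower, with a median of 0.12 against -0.12 over all miRNAs. The 4 with the highest level were miR-200b-3p (0.23), miR-200a-3p (0.12), miR-429 (0.27) and miR-141-3p (0.21). Their summed log2 level over the 8 was 11.45 on both SHAM arrays and 11.67 and 11.63 in UNX, so it moved in the direction of miR-96-5p, by less. It was 11.42 and 11.09 in DOCA and 11.51 and 11.66 in DOCA-EVs.

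Between DOCA and UNX, 1 of the 8 epithelial miRNAs was higher and 7 lower, with a median of -0.39 against 0.08 over all. 1 fell by the test, miR-375-3p, at -1.26 (limma adjusted p = 0.032), but it was above background on 1 of 8 arrays, so that value is no fold. miR-200b-3p was at -0.40, miR-200a-3p at -0.45, miR-429 at -0.37 and miR-141-3p at -0.08. Between DOCA-EVs and DOCA all 8 had positive differences, with a median of 0.49 against 0.00 over all, and 0 passed the test. The difference of miR-96-5p there was -0.11, of the other sign. Between DOCA-EVs and UNX 3 were higher and 5 lower, with a median of -0.08, and miR-200c-3p, above background on 4 of 8 arrays, rose by 1.30 on the log2 scale (limma adjusted p = 0.034). These 2 called miRNAs are outside the naming rule and were named after their values were seen.

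Kidney tubule miRNAs, such as miR-192-5p and miR-194-5p, had 7 of 8 members in the fit. Their median differences were 0.07 in UNX against SHAM (4 higher, 3 lower), -0.41 in DOCA against UNX (0 higher, 7 lower), 0.18 in DOCA-EVs against DOCA (4 higher, 3 lower) and -0.13 in DOCA-EVs against UNX (1 higher, 6 lower). The 4 with the highest level, miR-30a-5p, miR-10a-5p, miR-10b-5p and miR-192-5p, were at -0.29, -0.47, -0.41 and -0.65 in DOCA against UNX. The test called only miR-192-5p, lower in DOCA-EVs than in UNX by a log2 difference of -0.81 (limma adjusted p = 0.040). Their summed level was 12.89 and 12.93 in SHAM, 13.00 and 13.11 in UNX, 12.63 and 12.63 in DOCA, and 12.68 and 12.93 in DOCA-EVs. It was highest in UNX, as was miR-96-5p, but so were the endothelial and the nerve sums given below.

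Leukocyte miRNAs had 6 of 7 members in the fit. Their median was -0.16 in UNX against SHAM (2 higher, 4 lower) and 0.92 in DOCA against UNX (6 higher, 0 lower). The 4 with the highest level, miR-146a-5p, miR-150-5p, miR-223-3p and miR-142-3p, were at 0.11, 0.61, 0.89 and 0.96 in the latter. It was -0.31 in DOCA-EVs against DOCA (1 higher, 5 lower) and 0.47 in DOCA-EVs against UNX (6 higher, 0 lower). miR-155-5p, which is made by activated immune cells, rose in DOCA against UNX by 1.38 on the log2 scale (limma adjusted p = 0.018) and in DOCA-EVs against UNX by 1.20 (limma adjusted p = 0.034); it is outside the naming rule and was above background on 5 arrays. The summed leukocyte level was 9.28 on both SHAM arrays, 9.36 on both UNX arrays, 9.86 and 9.96 in DOCA, and 9.54 and 9.81 in DOCA-EVs. That order, with DOCA highest, was not the order of miR-96-5p. The calls named here were fragile: without any 1 of the SHAM, UNX or DOCA arrays, limma called 0 of the 242 miRNAs in DOCA against UNX, and likewise in DOCA-EVs against UNX, where leaving out DOCA-EVs 2 also gave 0.

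Of 4 marker miRNAs listed for nerve and sensory cells, 2 were in the fit, and the neuronal miR-124-3p was above background on 0 of the 8 arrays. None of the 4 was listed for hair cells or photoreceptors, so they do not cover the sensory cells where the cluster is best known. Of the fitted ones, miR-9a-5p was above background on 0 arrays and miR-128-3p on 2, so their sum lies near background. It was 4.76 and 4.95 in SHAM, 5.23 and 5.24 in UNX, 4.88 and 4.96 in DOCA, and 5.06 and 5.05 in DOCA-EVs. Of erythrocyte miRNAs 2 of 3 and of endothelial and smooth muscle miRNAs 3 of 5 were in the fit, and no member of these 3 lists was called in any of the 4 comparisons. The erythrocyte sum ranged from 6.81 on DOCA 2 to 8.67 on DOCA 1. The endothelial and smooth muscle sum was 11.24 and 11.25 in SHAM and 11.28 and 11.27 in UNX. It was 11.14 and 11.01 in DOCA, and 10.89 and 11.21 in DOCA-EVs. The nerve sum and this sum were thus also highest on the UNX arrays. The part of any of these cell types in the values of miR-96-5p, miR-182 and miR-183-5p was not tested.

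The size of the difference of miR-96-5p between UNX and SHAM depended on the processing. It ran from 0.22, with normexp background correction of the median signals (offset 50) followed by quantile normalization, to 1.05 without scaling. The offset is added to every signal, which shrinks log2 differences of dim miRNAs. With normexp miR-96-5p was at 7.62 and 7.64 in SHAM and 7.89 and 7.82 in UNX. Quantile normalization of the processed signals put it at 5.38 and 5.33 in SHAM and 6.38 and 6.17 in UNX. Leaving out UNX 1, the higher array, gave 0.54, and leaving out UNX 2 gave 0.91.

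**Figure D5:**
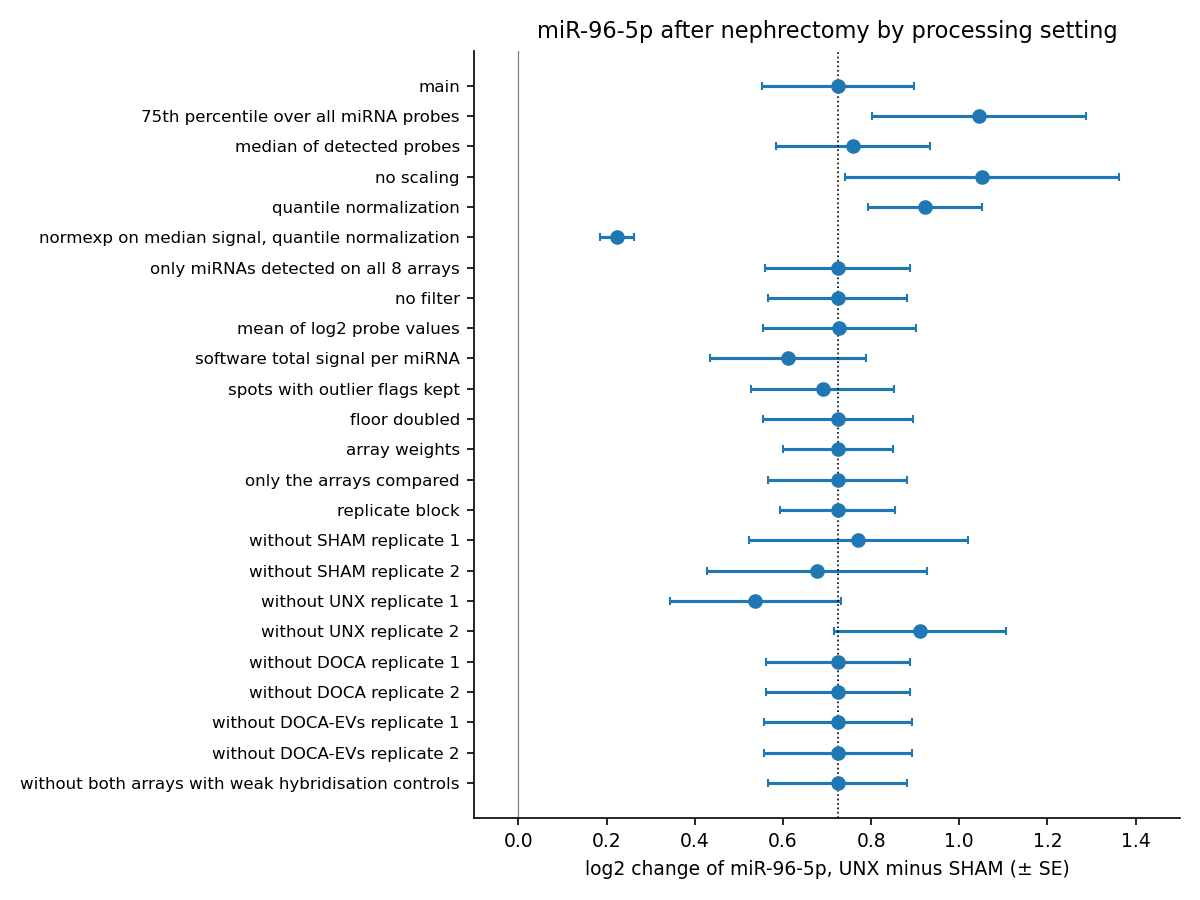
The x axis gives the log2 change of miR-96-5p, UNX minus SHAM, with its SE as bars, and each line of the y axis is 1 way of processing; the dotted line marks the reported value. Values run from 0.22 to 1.05; settings that only change the filter, the spread or the DOCA and DOCA-EVs arrays leave the SHAM and UNX values as they are, so that they cannot move it.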

How the data were processed

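Each of the 8 arrays, 2 per group, received 100 ng of RNA labelled with Cy3. Per the file headers, 1 slide of design 070154 was scanned and read with Agilent Feature Extraction 11.5.1.1, protocol miRNA_1105_Oct12, with annotation for build rn4. The deposited processed signal per spot is an intensity that the software background-subtracted and detrended and did not normalize between arrays. The deposited series table held the same intensity (largest difference 0). Per the file headers, the median spot signal, the local background and the total per miRNA are intensity values too, and detection and outlier columns are flags.

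Spots with outlier flags were left out, the others averaged per probe, and each array divided by its 75th percentile over the 271 probes detected on all arrays. Values under a floor of 2.57 (the mean SD of the negative controls) were set to it, and probes were then added up per miRNA and put on the log2 scale. limma 3.58.1 in R 4.3.3 fitted 1 mean per group over all 8 arrays (4 residual and 2.18 prior degrees of freedom). p-values are two-sided and adjusted over 242 miRNAs by Benjamini-Hochberg, with a threshold of 0.05. The code was tested on simulated data. The 516 other miRNAs were left out of the fit. Sequences and positions are from RefSeq tables of build GRCr8.

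The members and lists were chosen with earlier results of these data known. Named were all members, the 5 miRNAs with the highest Pearson r to miR-96-5p, and up to 4 members per marker list by mean level. Replicate numbers equal the slide row. Deviations of same-numbered arrays from their group means correlated at 0.24 to 0.56 in all 6 pairs of groups, so a fit with the row as a block was run beside the main one. The labels call each sample an animal replicate without saying that the 2 of a group were separate animals, so p-values measure only the spread between these samples, which may be technical. The normexp alternative was planned on mean signals, but was run on median signals, with an offset of 50.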

Additional observations from a re-analysis of the deposited data

How the results depend on the processing

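The fit with the replicate number (slide row) as a block called 0 miRNAs in UNX against SHAM, 5 in DOCA against UNX, 0 in DOCA-EVs against DOCA and 7 in DOCA-EVs against UNX, and it changed no call of a member. Neither miR-182 nor miR-96-5p passed the test in a comparison where it was tested under any of the other settings. Counts of called miRNAs moved more. In UNX against SHAM (0) array weights gave 3. In DOCA against UNX (4) array weights gave 18, scaling to the median of detected probes 20, outlier spots kept 12 (chosen after seeing the data), only the arrays compared 7, no filter 2, quantile normalization 1, no scaling 0, and leaving out DOCA 2 and DOCA-EVs 2 together 10. In DOCA-EVs against DOCA (0) the median scaling gave 4, no filter 2, normexp with quantile normalization 5, quantile normalization 3 and leaving out both those arrays 5. In DOCA-EVs against UNX (6) the count was 3 with only miRNAs detected on all 8 arrays, 1 with normexp, and 0 with the percentile over all probes, array weights, no filter, no scaling, only the arrays compared, quantile normalization and without both those arrays. Leaving out 1 array at a time gave 0 in UNX against SHAM, 0 to 15 in DOCA against UNX, 0 to 3 in DOCA-EVs against DOCA and 0 to 5 in DOCA-EVs against UNX. The causes were not tested.

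Signs of small member differences turned as follows, on the log2 scale. For miR-182 in DOCA-EVs against UNX (0.06), it was -0.063 with the percentile over all probes, -0.058 with the median, -0.078 without scaling, -0.096 with quantile normalization, -0.0023 with normexp, and -0.13 to 0.25 leaving out 1 array. For miR-183-5p in DOCA against UNX (0.23), it was -0.026 with the median, -0.351 without scaling, -0.361 with the software's total signal, -0.370 without both weak arrays, and -0.37 to 0.83 leaving out 1 array. For miR-96-5p in DOCA-EVs against DOCA (-0.11), it was 0.031 with the median, 0.336 without scaling and -0.22 to 0.0087 leaving out 1 array. For miR-182 in DOCA against UNX (-0.17), it was 0.094 without both weak arrays and -0.43 to 0.094 leaving out 1 array. Leaving out 1 array gave -0.55 to 0.65 for miR-183-5p and -0.034 to 0.49 for miR-182 in DOCA-EVs against DOCA. The 2 arrays per group and, for miR-183-5p, a signal near background limit all of these values.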
